A study of Gallus gallus with 10 samples.

Results

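In the duodenal crypts of laying hens, 244 transcripts that carry no annotated gene identifier averaged at least 20 FPKM (fragments per kilobase of transcript per M reads, a level already scaled to length) over 10 RNA sequencing libraries. They were selected on their mean level, out of 2453 unannotated transcripts in a table of 19561 features, so their abundance is a description and not a finding. All 244 passed the filter on low values and were tested. An unannotated transcript is one whose identifier is a number of the authors' own in place of an Ensembl gene identifier, and each is given here by that number. The table pairs no identifier with a sequence, a position or a gene symbol. For comparison, 2756 of the 17108 features with Ensembl chicken gene identifiers had a mean in the same range, 20.004 to 6691 FPKM, and 18 lay above it.

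Intestinal crypts are the pits between villi that hold the stem cells and secretory cells renewing the epithelium. Assemblers of RNA sequencing reads report a feature as unannotated when its reads lie outside the gene models of the annotation in use. Such a feature can be a noncoding RNA, a protein-coding gene that the annotation lacks, or an unrecorded end or fragment of a known gene, and the table does not say which of these any of the 244 is.

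The pair-fed libraries came from brown Hy-Line hens at peak egg production that received a basal diet with 2 lactobacilli, at 10e8 CFU (colony-forming units, as the labels write it) for each hen and day, for 30 days, and the basal diet libraries from hens on that diet without them. With abbreviations as the labels give them, there were 2 libraries of L. sa. + L. ag., 2 of L. sa. + L. av., 2 of L. ag. + L. av. and 3 of the basal diet. The series title spells out L. salivarius and L. agilis. The title of the remaining library names L. ag. + L. av. whereas its description reads Lsaav, so it counted only as pair-fed (called the library of unclear pair). Crypts were freed from the duodenum by EDTA, which binds the calcium that epithelial junctions need. They were passed through a strainer. No label ties a library to a single hen. The p-values therefore measure the spread between libraries, part of which may be technical.

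Whole reads could be worked back from the FPKM values. They came to 15.3 to 17.6 M per pair-fed library and 21.7 to 23.7 M per basal diet library, so depth and diet cannot be told apart. The 5 most abundant features of the table took 11.7 to 30.3% of reads in pair-fed libraries and 11.5 to 42.5% in basal diet libraries. The total by which the authors divided a library was 0.572 to 1.104 times its recovered reads in pair-fed libraries and 0.755 to 1.28 times in basal diet libraries. No identifier could be matched to a symbol, so the crypt label was not checked against cell type markers. In bulk RNA of this kind, fewer cells of a type and less RNA per cell cannot be told apart.

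The level of the unannotated transcripts was unevenly spread. Of the 244, 190 had a mean of 20 to 100 FPKM, 51 of 100 to 1000 and 3 above 1000. The 10 most abundant held 47.3% of the summed FPKM and transcript 835 alone held 21.2%. Just inside the threshold of 20 FPKM were transcripts 1406, with a mean of 20.03 FPKM, and 1525, with 20.004 FPKM. Just outside it were transcripts 1986, with 19.79 FPKM, and 2203, with 19.48 FPKM.

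The transcripts were shorter than Ensembl features of like abundance. The length behind the FPKM values had a median of 757 bp (quartiles 513 and 1284, range 262 to 9328 bp) in the 244, against 1484 bp (quartiles 939 and 2263) in the 2756 Ensembl features. Every one of the 244 was above 0 in all 10 libraries, as were 2750 of the 2756 Ensembl features. The lowest library held a median of 239 reads per unannotated transcript and 644 reads per Ensembl feature. The fewest reads in any library were 4, on transcript 1628.

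Most of the abundant unannotated transcripts were higher in pair-fed crypts. Of the 244, 142 (58.2%) rose with any pair against the basal diet and 3 (1.23%) fell, while 99 passed in neither direction (limma on log2(FPKM + 1), Benjamini-Hochberg adjusted p under 0.05 over all 12040 features tested). Over all features tested, 13.9% rose and 10.2% fell. The median log2 fold change of the 244 was 1.40 (quartiles 0.79 and 1.78), against 0.62 for Ensembl features of the same range and 0.03 for all features tested. Among those Ensembl features, 33.0% rose and 4.93% fell. A positive difference was seen in 225 of the 244 (92.2%), where 51.6% of all features tested and 72.2% of those Ensembl features had one. On that scale 136 of the 244 rose at least 2-fold, as did 1359 of all 12040 features tested and 806 of the 2756 Ensembl features. Pair-fed libraries supply 7 of the 10 values in the mean that selected the transcripts, which favours features that are high with a pair. The Ensembl features were chosen by the same mean. In the 7 pair-fed libraries as deposited, the median log2 difference of all features tested from the basal diet mean was −0.02 to 0.04. The deposited scaling thus left the typical feature level between diets, so the 0.03 and 51.6% over all features go with that scaling.

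The count of calls depended on the fit and on the basal diet libraries, over the whole table as among the 244. When the 3 pair groups had a coefficient each and their average was tested, with all basal diet libraries kept, 3 of the 244 rose and none fell, where 0.0831% of all features tested rose. Without basal diet library 1, 11 of the 244 rose and none fell, where 0.47% of all features tested rose. Without basal diet library 2, 1 rose and none fell, where 0.0503% rose. Without basal diet library 3, 101 rose and 3 fell, where 8.34% rose. The median log2 fold changes of the 244 without these libraries were 1.33, 1.40 and 1.46. At an unadjusted p under 0.05, limma passed 176 of the 244 (72.1%) with all libraries, where 40.2% of all features and 53.3% of Ensembl features of the same range passed. Without basal diet library 1 it passed 157 (64.3%), where 30.5% of all features passed. Without library 2 it passed 160 (65.6%), where 31.3% of all features passed.

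In the raw values, all 7 pair-fed libraries lay above all 3 basal diet libraries for 119 of the 244 transcripts (48.8%). Of all features tested 12.1% did so, and of Ensembl features of the same range 27.9%. The opposite order held for 3 of the 244 and for 5.66% of those Ensembl features. Counting either direction, 122 of the 244 had groups that did not overlap, where 22.1% of all features tested did so. Of the 142 transcripts that rose, 116 had groups that did not overlap, and so did the 3 that fell. The lowest library was a basal diet one for 200 of the 244 and the highest a basal diet one for 17. Among Ensembl features of the same range, the highest was a basal diet one for 23.2%. No share over other features is given here for the 116 or the 200, so those counts describe the 244 alone.

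**Figure D1:**
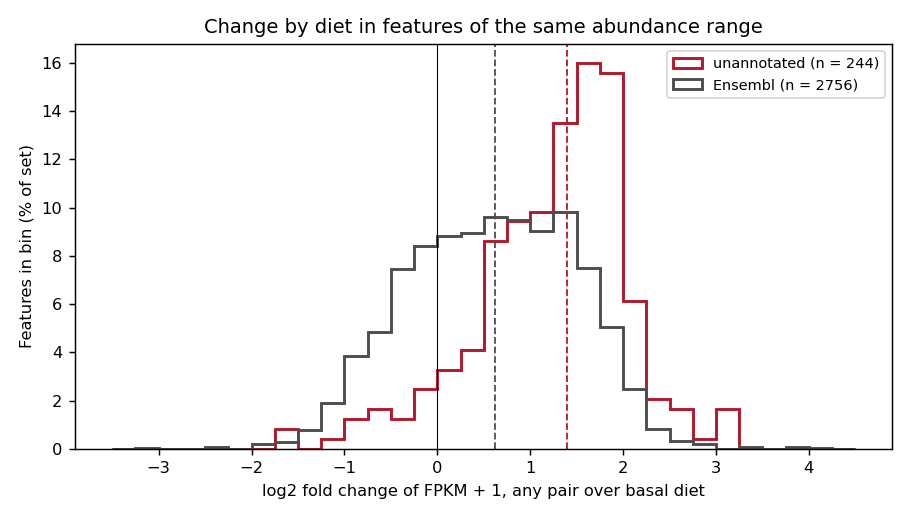
Distribution of the log2 fold change of FPKM + 1, any pair over basal diet, in bins as a percentage of each set: 244 unannotated transcripts (red) and 2756 Ensembl features of the same abundance range (grey), with dashed lines at the medians of 1.40 and 0.62. The unannotated transcripts crowd between 1 and 2, and the Ensembl features spread on both sides of 0, with 72.2% of them above it.

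Transcript 835 was the most abundant, with a mean of 6691 FPKM and a length of 486 bp. Its level was lowest at 2419, had a median of 7617 and was highest at 22427 FPKM over the 7 pair-fed libraries, against 2968, 1317 and 974 FPKM in the basal diet libraries. The groups overlapped, because L. ag. + L. av. library 1 lay below basal diet library 1. It rose by 2.21 ± 0.59 on the log2 scale (SE; limma, adjusted p = 0.0232). By pair, it had 4953 and 7617 FPKM with L. sa. + L. ag., 6642 and 9592.5 FPKM with L. sa. + L. av., and 2419 and 22427 FPKM with L. ag. + L. av. The libraries of the last pair thus held both its lowest and its highest pair-fed level.

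Transcript 31, of 566 bp, was higher in every pair-fed library. It ranged from 537 to 3273 FPKM around a median of 1553 FPKM in pair-fed libraries, against 247, 392 and 391 FPKM in basal diet libraries. It rose by 2.11 ± 0.46 on the log2 scale (SE; limma, adjusted p = 0.0154). Its lowest and highest pair-fed values were again those of L. ag. + L. av. libraries 1 and 2.

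Transcript 2042, of 851 bp, was the second most abundant and stood apart from this pattern. It had 4503 and 264 FPKM with L. sa. + L. ag., 518 and 411 FPKM with L. sa. + L. av., 3911 and 2609 FPKM with L. ag. + L. av. and 969 FPKM in the library of unclear pair. The basal diet libraries held 336, 848 and 2167 FPKM. Levels thus spread as widely within a diet as between diets, and the log2 difference of 0.42 ± 0.91 did not pass (SE; limma, adjusted p = 0.749). That difference was −0.25 without basal diet library 1 and 1.09 without basal diet library 3. It was −0.55 after quantile normalization and −0.23 with library weights.

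Of the other 7 among the 10 most abundant, 5 rose. Transcript 1358 had a lowest level of 573, a median of 974 and a highest level of 2403 FPKM in pair-fed libraries, against 269, 251 and 393 FPKM in basal diet libraries. Transcript 239 had 522, 868.5 and 1249 FPKM at the same points in pair-fed libraries, against 261, 358 and 372 FPKM in basal diet libraries. In both, the groups did not overlap. Their log2 fold changes were 1.78 ± 0.41 and 1.40 ± 0.32 (SE; limma, adjusted p = 0.0164 and 0.0165). Transcripts 1506 and 660 rose by log2 fold changes of 1.75 and 1.37 without overlap (limma, adjusted p = 0.0274 and 0.0195). Transcript 970 rose by 1.47 on the log2 scale (limma, adjusted p = 0.0366) and passed in 10 of 20 alternative settings. Its groups overlapped, since its 384 FPKM in L. ag. + L. av. library 1 lay below the 456 FPKM of basal diet library 3.

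Transcripts 1382 and 723 did not pass. Transcript 1382 had 562 to 1341 FPKM in pair-fed libraries, and basal diet library 1, at 1006 FPKM, lay among them while the other basal diet libraries held 394 and 336 FPKM (log2 difference 0.87; limma, adjusted p = 0.112). Its difference was −0.20 after quantile normalization. Transcript 723 had 278 to 2453 FPKM in pair-fed libraries, against 109, 425 and 558 FPKM in basal diet libraries (log2 difference 1.42; limma, adjusted p = 0.111).

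**Figure D2:**
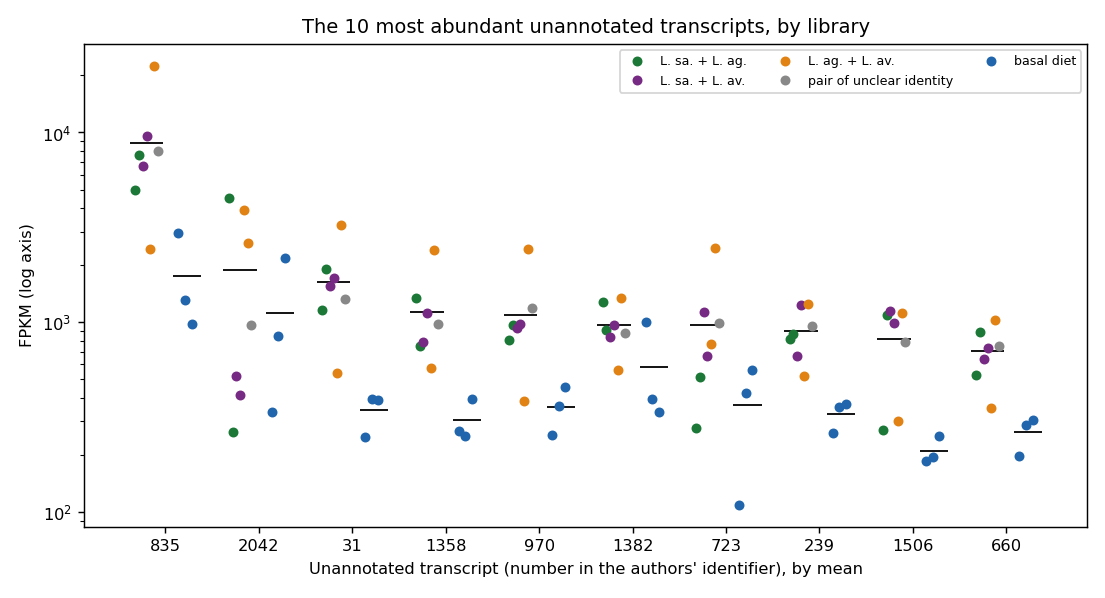
FPKM on a log axis of the 10 most abundant unannotated transcripts in each library, pair-fed libraries left of basal diet libraries, with a horizontal line at each group's mean. Transcript 835 reaches 22427 FPKM in 1 library of L. ag. + L. av., and 3 of the 7 pair-fed values of transcript 2042 lie within the range of its basal diet values.

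The steepest rises among transcripts whose groups did not overlap were in less abundant ones. Transcript 1620, of 1079 bp, had a lowest level of 99.1, a median of 137 and a highest level of 321 FPKM in pair-fed libraries, against 7.57, 17.4 and 27.4 FPKM in basal diet libraries. Every pair-fed value thus lay well above every basal diet value. It rose by 3.21 ± 0.43 on the log2 scale (SE; limma, adjusted p = 0.00904), and its mean level was 9.47-fold higher with a pair.

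Transcript 1666, of 1115 bp, had 8.43, 45.6 and 97.5 FPKM as lowest, median and highest pair-fed values, against 1.005, 3.31 and 4.995 FPKM in basal diet libraries. Within pairs it had 14.4 and 97.5 FPKM with L. sa. + L. ag., 85.6 and 45.6 FPKM with L. sa. + L. av., and 14.1 and 8.43 FPKM with L. ag. + L. av. The groups did not overlap, and it rose by 3.16 ± 0.71 on the log2 scale (SE; limma, adjusted p = 0.0159). Its fewest reads in a library were 34.

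Only 3 of the 244 transcripts fell with any pair, and for each the highest pair-fed library lay below the lowest basal diet library. Transcript 1746, of 797 bp, had a lowest level of 16.9, a median of 26.3 and a highest level of 74.5 FPKM in pair-fed libraries, against 105.9, 83.6 and 85.1 FPKM in basal diet libraries. It fell by 1.59 ± 0.39 on the log2 scale (SE; limma, adjusted p = 0.0184). Transcript 984, of 2957 bp, had 22.2, 31.95 and 63.0 FPKM at the same points, against 153, 114 and 74.3 FPKM in basal diet libraries. It fell by 1.55 ± 0.34 (SE; limma, adjusted p = 0.0159).

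Transcript 1151, named after its values were seen because it completes the 3 that fell, was the least variable of them. It had 19.7 to 32.7 FPKM around a median of 21.8 FPKM in pair-fed libraries, against 42.9, 43.8 and 44.4 FPKM in basal diet libraries. It fell by 0.80 ± 0.23 on the log2 scale (SE; limma, adjusted p = 0.0289). Of the 16 transcripts named in this account that passed, 2 did so without basal diet library 1, none without library 2 and 10 without library 3.

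**Figure D3:**
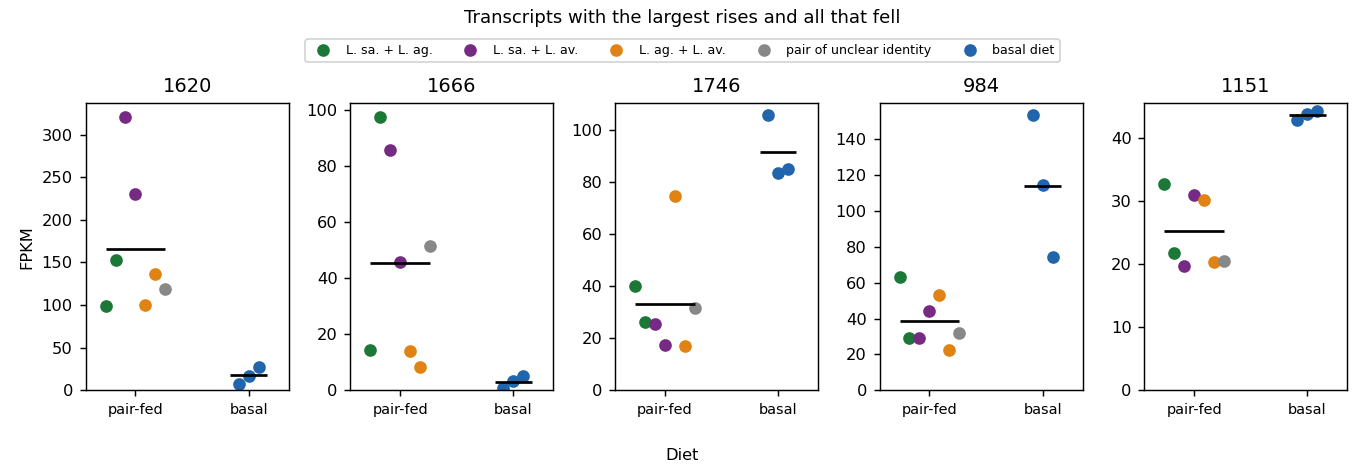
FPKM per library of the transcripts with the highest log2 fold changes among called ones whose groups did not overlap (1620, 1666) and of the 3 that fell (1746, 984, 1151), pair-fed left and basal diet right, with lines at group means and colours for the diet groups. No pair-fed point overlaps a basal diet point, which was a condition for naming the first 4 of these transcripts.

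Variation between libraries of 1 diet was larger for the unannotated transcripts than for Ensembl features of the same range. The pooled within-group SD of log2(FPKM + 1) had a median of 0.76 (quartiles 0.60 and 0.89) in the 244, against 0.56 in the Ensembl features and 0.45 in all features tested. Up to 500 bp the gap from Ensembl features was narrow, 0.82 against 0.75. It was 0.76 against 0.60 at 500 to 1000 bp, 0.72 against 0.56 at 1000 to 2000 bp and 0.60 against 0.51 above 2000 bp. These SDs were taken on the deposited scale only. There the median log2 differences from the basal diet mean in L. ag. + L. av. libraries 1 and 2 were 0.62 and 2.15 for the 244. For Ensembl features of the same range they were 0.16 and 0.90. How much of the SD these libraries carry was not tested. Over all 10 libraries of both diets, the highest exceeded the lowest by a median factor of 8.02 in the 244, with a range of 1.498 to 97.6. This factor includes the difference between diets.

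The most variable transcripts were 1628 and 2006. Transcript 1628, of 318 bp, had 24.8, 7.26, 8.14, 74.3, 13.8, 49.1 and 19.0 FPKM over the pair-fed libraries, against 27.7, 2.58 and 0.761 FPKM in the basal diet libraries, with an SD of 1.804. The groups overlapped and the log2 difference of 1.93 did not pass (limma, adjusted p = 0.104). Transcript 2006, of 794 bp, had an SD of 1.67, and its pair-fed values ran from 32.3 to 584 FPKM, against 10.003, 19.2 and 32.2 FPKM in the basal diet libraries. It rose by 2.64 ± 0.86 (SE; limma, adjusted p = 0.0438), although its lowest pair-fed value all but met the highest basal diet value. This rise passed in 9 of 20 alternative settings.

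The steadiest transcripts were 196 and 1068. Transcript 196, of 1581 bp, had 31.5 to 43.2 FPKM in pair-fed libraries, against 29.5, 28.8 and 30.4 FPKM in basal diet libraries, with an SD of 0.11. All its pair-fed values lay above all basal diet values, yet the log2 difference of 0.30 did not pass (limma, adjusted p = 0.254). That difference was −0.10 after quantile normalization and −0.0167 after division by all recovered reads. Transcript 1068, of 969 bp, had 18.3 to 31.0 FPKM in pair-fed libraries, against 14.6, 11.4 and 16.3 FPKM in basal diet libraries. It rose by 0.64 ± 0.22 (SE; limma, adjusted p = 0.0484) and passed in 7 of 20 alternative settings.

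The difference from Ensembl features was seen at each level of abundance. At 20 to 100 FPKM the median log2 fold change was 1.29 in 190 unannotated transcripts, against 0.42 in 1965 Ensembl features. At 100 to 1000 FPKM it was 1.65 in 51, against 1.07 in 686. Above 1000 FPKM it was 2.11 in 3, against 1.33 in 105. A rise with a pair itself moves a feature to a higher class, since 7 of the 10 values in the mean are pair-fed, so no trend across classes is read from these medians. Among 1525 unannotated transcripts that were tested but averaged under 20 FPKM, 11.6% rose, 2.03% fell and the median was 0.33.

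Length moved with the change in both sets. Of 58 unannotated transcripts up to 500 bp, 43 (74.1%) rose and none fell, and their median log2 fold change was 1.68, against 1.36 in 160 Ensembl features, of which 51.9% rose. Of 101 between 500 and 1000 bp, 65 (64.4%) rose and 1 fell, with a median of 1.45, against 0.95 in 612 Ensembl features, of which 45.6% rose. Of 57 between 1000 and 2000 bp, 28 (49.1%) rose and none fell, with a median of 1.09, against 0.63 in 1112, of which 32.8% rose. Of 28 above 2000 bp, 6 (21.4%) rose and 2 (7.14%) fell, with a median of 0.62, against 0.21 in 872, of which 20.9% rose. From the shortest class to the longest, 1.25%, 2.29%, 3.69% and 9.06% of the Ensembl features fell.

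The gap between the sets was also present within classes of abundance and length together. In all 8 joint classes of abundance (20 to 100 and 100 to 1000 FPKM) and length, the unannotated median was the higher. The closest were 0.68 in 4 unannotated transcripts and 0.65 in 121 Ensembl features, at 100 to 1000 FPKM and above 2000 bp. In the largest class, 74 transcripts of 20 to 100 FPKM and 500 to 1000 bp, it was 1.41, against 0.67 in 326 Ensembl features. The share that rose was the larger in unannotated transcripts in 7 of the 8. These classes describe the sets, and no test was made of the difference between them.

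**Figure D4:**
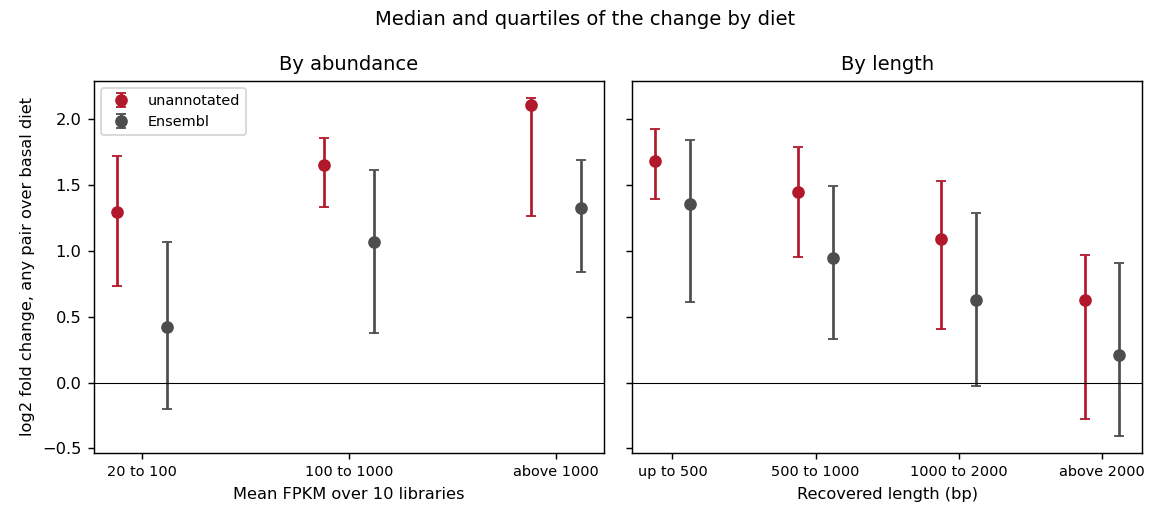
Median (points) and quartiles (bars) of the log2 fold change, any pair over basal diet, by class of mean FPKM (left) and of recovered length (right), for unannotated transcripts (red) and Ensembl features of the same range (grey). The median falls with length in both sets, and the unannotated median is the higher in all 7 classes shown.

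When the transcripts were chosen on the basal diet libraries instead, the gap between the sets remained. A basal diet mean of at least 20 FPKM held for 139 unannotated transcripts. Of these, 65 (46.8%) rose and 3 (2.16%) fell, with a median log2 fold change of 1.16. Among 2491 Ensembl features chosen in the same way, 609 (24.4%) rose, 9.80% fell and the median was 0.25. Over all features tested, 13.9% rose and 10.2% fell. Here the choice leans toward features that are high without a pair.

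The shift was present in each pair-fed library and differed in size between them. The median log2 difference of the 244 from the basal diet mean was 0.62 to 2.15 over the 7 pair-fed libraries, against −0.24 to 0.24 over the 3 basal diet libraries. Here and below, each basal diet library was set against the mean of the other basal diet libraries. For Ensembl features of the same range it was 0.16 to 0.90 in pair-fed and −0.06 to 0.05 in basal diet libraries. Subtracting the Ensembl shift from the unannotated shift in each library left 0.45 to 1.25 in pair-fed and −0.18 to 0.19 in basal diet libraries, without overlap.

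As deposited, L. ag. + L. av. library 2 had the largest shift, 2.15, and L. ag. + L. av. library 1 the smallest of the pair-fed libraries, 0.62. After division by all recovered reads this order changed. The largest was then 1.40 in the library of unclear pair and the smallest 0.47 in L. sa. + L. ag. library 1. On that scale the basal diet libraries lay at −0.46 to 0.38. As deposited, 140 of the 244 were highest in L. ag. + L. av. library 2, and 38.1% of the Ensembl features were highest there too. That library also had the smallest divisor, 0.572 times its recovered reads. After division by all recovered reads it was highest for 65 of the 244. Without it, 128 of the 244 rose and 3 fell, with a median log2 fold change of 1.24, against 0.57 in Ensembl features. In that setting 10.5% of all features tested and 25.9% of those Ensembl features rose. The gap between the 2 medians, 0.67, was the smallest over 20 alternatives. Basal diet library 1 was the lowest library for 124 as deposited and for 53 after division by all reads, and basal diet library 3 for 40 and 134.

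As a share of all recovered reads, the 244 took 2.23 to 3.16% in pair-fed libraries (mean 2.69 ± 0.33%, SD, n = 7), against 1.26 to 1.97% in basal diet libraries (mean 1.62 ± 0.35%, SD, n = 3). The ranges did not overlap. Leaving out the reads of the 5 most abundant features of the table, the share was 2.84 to 4.07% in pair-fed libraries, against 2.15 to 2.22% in basal diet libraries. Ensembl features of the same range took 42.6 to 66.5% of all reads in pair-fed and 31.7 to 58.3% in basal diet libraries. Without the 5 features they took 61.1 to 75.4% and 55.1 to 65.9%. The mean that selected both sets is mostly pair-fed, which favours a larger share in pair-fed libraries. On the FPKM scale the 244 summed to 21283 to 73031 in pair-fed libraries, against 12500 to 14518 in basal diet libraries.

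The size of the shift depended on how the libraries were scaled. Division by all recovered reads moved the median log2 fold change of all features tested from 0.03 to −0.19. On that scale 111 of the 244 rose and 4 fell, with a median of 1.08, against 0.30 in Ensembl features. There 7.40% of all features tested rose and 9.91% fell, and 19.7% of Ensembl features of the same range rose. Quantile normalization gave 113 higher and 7 lower, with a median of 0.92, against 0.08 in Ensembl features. With it 10.9% of all features tested rose and 13.1% fell, and 20.6% of Ensembl features rose and 15.9% fell. The unannotated median exceeded the Ensembl median by 0.78 as deposited and by 0.67 to 0.84 over 20 alternatives. A factor applied to a whole library moves both sets nearly alike, and a changed filter leaves the fold changes as they were. Such alternatives could hardly move this gap, so its steadiness under them shows little. It was 0.77 after division by all recovered reads and 0.78 without a filter.

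**Figure D5:**
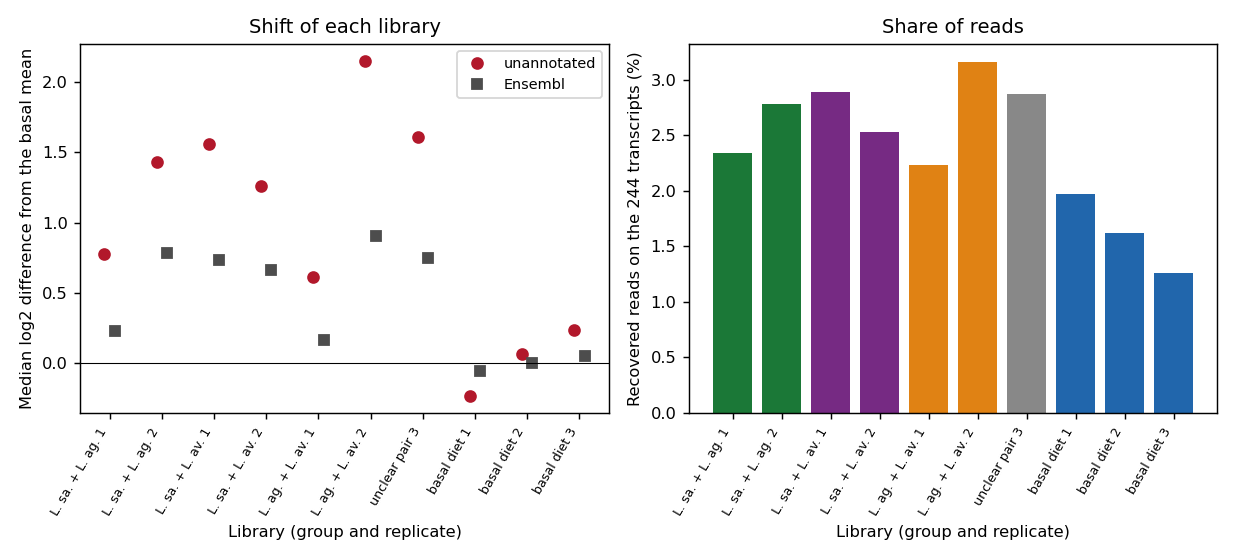
Left, median log2 difference of each library from the basal diet mean for the 244 unannotated transcripts (red circles) and Ensembl features of the same range (grey squares). A basal diet library was set against the mean of the other basal diet libraries. Right, percentage of recovered reads on the 244 transcripts, with bars coloured by diet group. The 7 pair-fed libraries lie at 0.62 to 2.15 for unannotated transcripts and the 3 basal diet libraries at −0.24 to 0.24.

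Many of the transcripts varied together from library to library. Pearson's r between log2(FPKM + 1) of 2 unannotated transcripts had a median of 0.65 over the 10 libraries and 0.46 over the 7 pair-fed libraries, against 0.25 and 0.24 for Ensembl features of the same range. All pairs share the same libraries and their scaling, so these values only describe the table. The correlation with the mean profile of the 244 was above 0.8 for 150 transcripts and below 0 for 23. The lowest belonged to transcripts 984, with −0.96, 1746, with −0.94, and 1151, with −0.94, the 3 that fell. That profile is made from the same 244 and carries their rise with a pair, so these correlations partly restate the calls. Transcript 2042 had an r of −0.02 with that profile.

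Single pairs, with 2 libraries each, passed few transcripts. These comparisons share the basal diet libraries and came from 1 limma fit over all groups. With L. sa. + L. av. against the basal diet, 2 of the 244 rose and none fell, where 0.0664% of all features tested were called. Transcript 1620 had 321 and 230 FPKM with L. sa. + L. av., against 7.57, 17.4 and 27.4 FPKM with the basal diet, and rose by 4.05 ± 0.53 (SE; limma, adjusted p = 0.0322). Transcript 2274, of 2937 bp, had 250 and 139 FPKM, against 7.29, 12.2 and 16.6 FPKM, and rose by 3.91 ± 0.47 (SE; limma, adjusted p = 0.0257). Neither transcript's libraries overlapped between the diets.

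With L. sa. + L. ag. against the basal diet, none of the 244 passed in limma, where 0.0498% of all features tested were called. At an unadjusted p under 0.05 limma passed 103 (42.2%), where 15.5% of all features and 20.9% of Ensembl features of the same range passed. Voom weights on recovered reads passed 0 after adjustment, and the lowest adjusted p was 0.0970 in limma. With L. ag. + L. av. against the basal diet, none passed in limma, where 0% of all features were called. There 142 (58.2%) passed at an unadjusted p under 0.05, where 22.6% of all features and 28.1% of Ensembl features passed. Voom passed 0 and the lowest adjusted p was 0.174 in limma. The median log2 differences of the 244 were 1.18 with L. sa. + L. ag., 1.44 with L. sa. + L. av. and 1.46 with L. ag. + L. av.

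The count for L. sa. + L. av. depended on the other groups in the fit. A fit of only its libraries and the basal diet ones called 125 of the 244 (51.2%), where 14.4% of all features and 29.6% of Ensembl features of the same range were called. Placing the library of unclear pair there called 67 (27.5%), where 7.30% of all features were called. Leaving out either L. sa. + L. av. library, or basal diet library 1 or 2, called none, while leaving out either L. ag. + L. av. library called 79 (32.4%), where 6.49% of all features were called. Leaving out either L. sa. + L. ag. library called 1. For L. ag. + L. av., leaving out its library 1 called 115 (47.1%), where 11.1% of all features were called.

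Between pairs, none of the 244 passed in limma in any of the 3 comparisons. L. sa. + L. ag. was set against L. sa. + L. av. first, and 0% of all features tested were called there. In that comparison limma passed 4 of the 244 (1.64%) at an unadjusted p under 0.05, where 1.63% of all features passed, and the median log2 difference of the 244 was −0.33. Set against L. ag. + L. av., L. sa. + L. ag. had 0.00831% of all features called, with 7 of the 244 (2.87%) and 4.07% of all features at an unadjusted p under 0.05, and a median of −0.17. The pair L. sa. + L. av. set against L. ag. + L. av. had 0% called, with 6 of the 244 (2.46%) and 2.92% of all features at an unadjusted p under 0.05, and a median of 0.05. Weights from voom on recovered reads passed 0 of the 244 in each after adjustment. The difference of transcript 1666 (L. sa. + L. av. minus L. ag. + L. av.) was 2.41 ± 0.82 on the log2 scale (SE; limma, adjusted p = 1). Over the 244, the differences in that comparison ran from −2.79 to 2.41. With 2 libraries a pair, a difference that missed the threshold does not show that the pairs acted alike.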

How the data were processed

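The authors deposited 1 table of FPKM values, with no counts. Tools named, without a role, per the submitters' processing notes are featureCounts 1.5.0-p3, HISAT2 and CASAVA 1.8. The sources used here do not give the genome build, the annotation, the assembler of the unannotated transcripts or how library totals were set. The reference gene table holds 25635 genes and 0 Ensembl identifiers, so no symbol was assigned and no cell type marker list gave a result.

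Deposited FPKM values are whole multiples of a step set by a feature's length and the library total. This gave lengths for 17375 of 17375 features above 0 and reads within 0.002 of a whole number for 100% of their values. Values were tested on log2(FPKM + 1), which understates the change of low features, with limma 3.58.1 in R 4.3.3 (trended eBayes, 2-sided, Benjamini-Hochberg). Features with at least 1 FPKM in at least 2 libraries entered, 12040 in all. The comparison of any pair with the basal diet set 7 libraries against 3. Single pairs came from 1 fit with a coefficient per group. The script was tested on simulated data.

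The transcripts, their threshold and the settings were chosen with earlier results of these data known. Transcripts were named by rule, as the 10 most abundant, the 2 steepest called changes in each direction among those whose groups did not overlap (a condition of the rule), those called in a single pair, the 2 most and 2 least variable, and those beside the threshold. Alternatives changed the pseudocount (0.1), filter, scaling, weights, replicate block, selection and libraries.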

Additional observations from a re-analysis of the deposited data

Results flagged for a closer look

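In 6 of 25 measures examined, 1 of the 7 pair-fed libraries lay apart from the others by more than 0.568 of their range. This is Dixon's criterion, which chance passes in about 1 of 20 groups of normally distributed values. The 6 gaps were taken on FPKM and not on log2 values, where a high value stands out less, so that rate need not hold here. The 7 libraries come from different pairs. Transcript 835 had 22427 FPKM in L. ag. + L. av. library 2, and the next library had 9592.5 FPKM. The same library stood apart for transcript 1358, with 2403 FPKM before 1334 FPKM, for transcript 970, with 2424 FPKM before 1193 FPKM, and for transcript 723, with 2453 FPKM before 1129 FPKM. Transcript 1746 had 74.5 FPKM in L. ag. + L. av. library 1 and 40.2 FPKM in the next. Transcript 2274 had 250 FPKM in L. sa. + L. av. library 1 and 139 FPKM in the next. The divisor of L. ag. + L. av. library 2 was 0.572 of its recovered reads, the lowest of all libraries, and its part in these values was not tested.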

How the results depend on the processing

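The median log2 fold change of the 244 transcripts with any pair stayed at 0.92 to 1.52 over 20 alternatives. The number that rose, 142, was 3 when the 3 pair groups had a coefficient each and their average was tested (the library of unclear pair then adds nothing). It was 1 to 165 when libraries were left out in turn, where 0.0503 to 18.8% of all features tested rose. It was 65 of 139 (46.8%) when transcripts were chosen by a basal diet mean of at least 20 FPKM, where 24.4% of Ensembl features rose. By a mean of at least 50 FPKM it was 70 of 105 (66.7%), where 42.0% of Ensembl features rose. Both stand against 58.2% of the 244. The number that fell, 3, was 0 from that average, 5 with a mean of at least 5 FPKM and 7 with quantile normalization. It was 10 with library weights. It was 6 of 392 (1.53%) when chosen by a mean of at least 10 FPKM, where 7.35% of Ensembl features fell. It was 0 to 6 when libraries were left out, where 0 to 14.5% of all features tested fell. Of all features tested, 10.9% fell with that mean of at least 5 FPKM, 13.1% with quantile normalization and 32.4% with library weights. For L. sa. + L. av., the 2 calls became 0 without a filter, 1 with quantile normalization and 6 with division by all reads. They became 175 with library weights, where 40% of all features tested were called, and 125 with only the compared groups. They became 67 with the library of unclear pair and 0 to 79 when libraries were left out. For L. ag. + L. av., the count was 0 to 115 when libraries were left out. Where an arm kept 1 library, it was taken to vary like the other groups. Library weights were still changing when their estimation stopped. The cause was not tested.

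Whether replicate numbers in the titles pair the libraries could not be settled. Differences of replicate 1 minus replicate 2 correlated between groups at −0.282 to 0.443, from 1 such difference in each group. With the replicate block, 149 rose and 3 fell with any pair, where 13.9% of all features tested rose and 11% fell. For L. sa. + L. av., 0 were called with it, where 0.00831% of all features were called.

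Among 22 named transcripts, 346 results under an alternative kept their direction and side of the threshold, 82 lost the call, 6 gained it and 6 changed sign. The log2 difference changed sign for transcript 2042 with quantile normalization (−0.55), library weights (−0.23) and without basal diet library 1 (−0.25, against 1.09 without library 3), for transcript 1382 with quantile normalization (−0.20), and for transcript 196 with quantile normalization (−0.10) and division by all reads (−0.0167). None of these 3 had passed. Depth limits the rarest values, down to 4 reads.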
